A study of Mus musculus with 30 samples.

Results

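A set of 7 rows of the deposited expression table is described here: Rn7s6, Rny3 and Gm26315, which are short noncoding RNA genes, and Rn18s-rs5, AY036118, Mir6240 and Lars2, which are linked to ribosomal RNA by sequence, position or a shared course. They are 7 of the 16995 rows of the table and were selected by name from earlier results of the same stroke against sham comparisons, so their differences from sham are given as a description, without a test. RNA came from the side of the cervical spinal cord (C5/C6) that had lost its corticospinal input, cut to the middle layers of the grey matter, in adult female C57BL/6 mice (C57BL/6J in the study's methods) perfused with Ringer's solution and not fixed. The stroke groups had a photothrombotic lesion of the right sensorimotor cortex and were sampled at 4, 7, 14, 28 or 42 days post injury (dpi), and the control group (labelled Ctrl) had the same surgery as a sham operation, without illumination. Values were held by 5 sham animals, 4 animals at 4 dpi and 5 animals at each later time point, each from a single mouse, so the spread between values is a spread between animals. The animals of each group had been picked by the study from a larger operated group on quality criteria. Samples were cut by hand under a microscope, so each piece holds all cell types of the region. In such bulk samples, fewer cells of a type and less RNA per cell cannot be told apart.

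The 3 neuronal markers (Snap25, Rbfox3 and Syt1) summed to between 1256 and 2036 normalized CPM in every animal, and the 3 astrocyte markers (Gfap, Aqp4 and Slc1a2) to between 2126 and 3118. Haemoglobin genes summed to at most 29.2, and no row was held for the muscle genes Acta1 and Myh4. Markers of neurons and astrocytes, which spinal cord should hold, were thus present. At 28 dpi the neuronal sum was 1256 to 1713 beside 1530 to 2036 in sham and the astrocyte sum 2641 to 3118 beside 2217 to 2752, and their part in the results at that time was not tested. A list of inhibitory neuron markers had a higher range than in sham at 28 dpi, overlapping it, so neuronal markers did not all go lower. Not every cell type list is given here. The 3 microglia markers (Cx3cr1, P2ry12 and Tmem119) summed to 32.9 to 38.7 at 14 dpi, above all sham animals at 26.5 to 32.3, and their part in the 14 dpi values was not tested either. No depth can be given for single animals, because the values are normalized CPM rounded to 0.1 and not counts. Animals are named by the code in their labels, such as A11-1, and what the part before the hyphen stands for is not given. Apart from A3, which occurs at 28 and 42 dpi, no such part occurs in more than 1 group, so anything tied to it cannot be told apart from the time point.

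7SL RNA is the RNA scaffold of the signal recognition particle, which carries ribosomes that make secreted and membrane proteins to the endoplasmic reticulum. Y RNAs bind the Ro60 and La proteins and take part in RNA quality control, and 7SK RNA holds the elongation factor P-TEFb in an inactive complex. All of them are made by RNA polymerase III and have many near copies in the genome. Ribosomal RNA, in contrast, is transcribed by RNA polymerase I from repeated genes, and it is the most abundant RNA of a cell, so that total RNA libraries such as these are depleted of it before sequencing. What is left of it after depletion is read out at rows whose sequence matches rRNA.

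Comparing the sequences of the 3 small RNA genes with other transcripts shows how closely each is tied to other genes of its family. Rn7s6 is annotated on chromosome 6 (mm10, plus strand, 291 bases). Of its 261 words of 31 bases, 143 also occurred in Rn7s1, the 7SL gene with high values in this table.
Gm26315 lies on chromosome 2 (mm10, chr2:7076094-7076414, minus strand, 321 bases), and 205 of its 291 words of 31 bases (70.4%) occurred in Rn7sk, the 7SK gene. By sequence it is therefore a 7SK-related gene and neither a 7SL nor a Y RNA gene. Its first 300 bases (chr2:7076115-7076414) are given with the words shared with Rn7sk in capitals.
Gm26315: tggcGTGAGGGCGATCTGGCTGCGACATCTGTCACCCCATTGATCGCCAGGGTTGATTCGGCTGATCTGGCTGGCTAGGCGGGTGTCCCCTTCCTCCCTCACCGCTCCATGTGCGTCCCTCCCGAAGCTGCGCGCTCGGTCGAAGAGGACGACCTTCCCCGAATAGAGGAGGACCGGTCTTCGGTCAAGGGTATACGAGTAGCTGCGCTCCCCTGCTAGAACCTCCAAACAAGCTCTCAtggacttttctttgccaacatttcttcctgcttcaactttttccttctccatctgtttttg
Rny3 lies on chromosome 6 (chr6:47781624-47781725, plus strand, 102 bases) and shared no word of 31 bases with any other annotated transcript. The longest run it shared with Rny1, the other Y RNA gene of the table, was 12 bases and is in capitals.
Rny3: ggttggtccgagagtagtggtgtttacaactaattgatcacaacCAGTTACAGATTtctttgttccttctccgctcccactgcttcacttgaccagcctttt
Reads of Rny3 could thus be told from those of Rny1, whereas a read from the shared stretches of Rn7s6 or Gm26315 matched Rn7s1 or Rn7sk as well, and the authors' estimation had to divide it between them. The values of Rn7s6 and Gm26315 are uncertain to that extent.

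The rRNA-linked rows differ in the same respect. Rn18s-rs5 (chr17:39846353-39848827, minus strand, annotated as rRNA) holds the whole of AY036118 (chr17:39847113-39848035, minus strand, a long noncoding RNA of 923 bases): all 893 words of AY036118 occurred in Rn18s-rs5, where it fills positions 167 to 1089 of a transcript of 1849 bases. The first 120 bases of AY036118 (chr17:39847916-39848035) are shown in capitals because each of them is part of both genes.
AY036118: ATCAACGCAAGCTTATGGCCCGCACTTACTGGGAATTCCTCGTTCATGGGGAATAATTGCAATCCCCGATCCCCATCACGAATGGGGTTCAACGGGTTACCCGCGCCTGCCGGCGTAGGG
All 893 words of AY036118 also occurred on the opposite strand in Gm42418, a long noncoding RNA gene of the same locus. The library kit did not mark strand, so reads of AY036118 and of the stretch of Rn18s-rs5 that Gm42418 also holds (1735 of 2466 words of Rn18s-rs5, 70.4%) cannot be told from those of Gm42418, and the 3 values depend on how these reads were divided. Rn18s-rs5 is called the 18S row below after its gene name. Which strand of the locus, that of Rn18s-rs5 and AY036118 or that of Gm42418, reads as 18S rRNA was not computed. Mir6240 (chr5:114851948-114852064, plus strand, a miRNA gene of 117 bases) shared no word of 31 bases with any other annotated transcript. Its hairpin from RefSeq (GRCm38.p6, the same interval) is given with the mature miRNA in capitals, followed by the mature miRNA with its seed (bases 2 to 8) in capitals, and by the mature miRNA of Mir6236, a gene outside the 7 with a like course (chr9:110281353-110281371, plus strand).
Mir6240 hairpin: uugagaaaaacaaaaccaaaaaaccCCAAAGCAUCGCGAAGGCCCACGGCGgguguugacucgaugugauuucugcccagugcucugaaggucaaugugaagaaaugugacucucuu
mmu-miR-6240: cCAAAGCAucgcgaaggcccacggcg
mmu-miR-6236: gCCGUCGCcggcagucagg
The 2 seeds differ. The libraries were not made for small RNAs, so the value of a miRNA gene counts fragments assigned to its hairpin region and not the mature miRNA. Lars2 (chr9:123366927-123462666, plus strand, protein coding) encodes the mitochondrial leucyl-tRNA synthetase, and 0.923% of the words of its transcripts occurred in any other annotated gene. None of the other 6 rows was among the genes that shared them, but Gm15564, an antisense gene described further on, held 22 of the 11160 words. A match of Mir6240 or Lars2 to 28S rRNA was not computed, since no 28S sequence was used here.

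Rn7s6 was lower than in sham in every animal at 7 and 14 dpi and overlapped sham at the other times. The sham values were 5.2 and 5.2 normalized CPM in A11-1 and A11-4 and 2.9, 3.0 and 2.8 in A12-1, A12-2 and A12-3. The values were 3.6, 5.1, 1.7 and 1.5 at 4 dpi, and 0.7, 0.3, 0.3, 0.3 and 0.5 at 7 dpi. All 5 animals at 7 dpi thus lay under the lowest sham animal, while 2 of 4 did at 4 dpi. At 14 dpi the values were 0.3, 0.2, 0.1, 0.1 and 0.2, which is 1 to 3 rounding steps above 0, and all 5 lay under sham again. At 28 dpi they were 2.6, 3.5, 2.1, 6.7 and 3.8 and at 42 dpi 2.0, 1.4, 0.5, 2.8 and 3.0, and both groups overlapped sham. On the log2(value + 0.5) scale the difference from sham was -2.20 ± 0.22 (SE, n = 5 and 5) at 7 dpi, -2.63 ± 0.20 after 14 days, -0.07 ± 0.31 at 28 dpi and -0.91 ± 0.38 after 42 days. The added 0.5 makes this scale understate a change of such low values, and with 0.05 in its place the 14 dpi difference was -4.09.

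Rny3, the Y3 RNA gene, lay under every sham animal in all 5 animals at 7 dpi, in 3 of 5 after 14 days and in 4 of 5 at 42 dpi. In sham it was 3.0, 5.8, 9.8, 9.7 and 5.2, a wide range. Its values were 3.2, 2.0, 3.2 and 2.4 at 4 dpi, and 2.4, 0.8, 0.7, 1.6 and 1.5 at 7 dpi. Only the 7 dpi group lay wholly under sham. The values were 2.3, 1.5, 1.9, 3.3 and 3.3 at 14 dpi, 4.7, 2.1, 2.1, 4.0 and 5.0 after 28 days, and 0.5, 0.5, 0.8, 2.6 and 4.8 at 42 dpi. At 42 dpi 4 of 5 animals lay under sham and the fifth, A3-4 with 4.8, lay within it. The difference from sham was -1.08 ± 0.32 at 4 dpi (SE, n = 4 and 5), -1.89 ± 0.37 after 7 days, -1.22 ± 0.34 at 14 dpi, -0.78 ± 0.38 after 28 days and -1.85 ± 0.57 at 42 dpi. With every animal rescaled to the same sum of values, which moves the median of all rows by -0.73 at 28 dpi, the 28 dpi difference was -1.48.

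Gm26315, the 7SK-related gene, was lower at every time point from 7 dpi on. Sham animals had values of 8.8 and 8.2 in A11-1 and A11-4 and of 3.8, 5.1 and 4.4 in the other 3, and the 4 dpi values were 7.2, 6.4, 3.7 and 3.8. In sham and at 4 dpi the animals therefore split by the first part of their code, as they did for Rn7s6, where A11 lay above A12 and A9 above A10. The part of this split in the differences was not tested. The values were 1.4, 1.9, 0.7, 2.0 and 3.0 at 7 dpi, 2.1, 2.4, 2.1, 1.6 and 1.2 after 14 days, 2.8, 2.8, 1.0, 2.9 and 3.6 at 28 dpi, and 1.0, 0.4, 1.3, 1.4 and 2.4 after 42 days. None of these 20 animals reached the lowest sham animal. The difference from sham was -0.17 ± 0.32 at 4 dpi, -1.53 ± 0.34 after 7 days, -1.42 ± 0.26 at 14 dpi, -1.08 ± 0.34 after 28 days and -1.90 ± 0.35 at 42 dpi. Rescaling to the same sum of values put it at -1.85 at 14 dpi and -1.78 at 28 dpi.

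**Figure D1:**
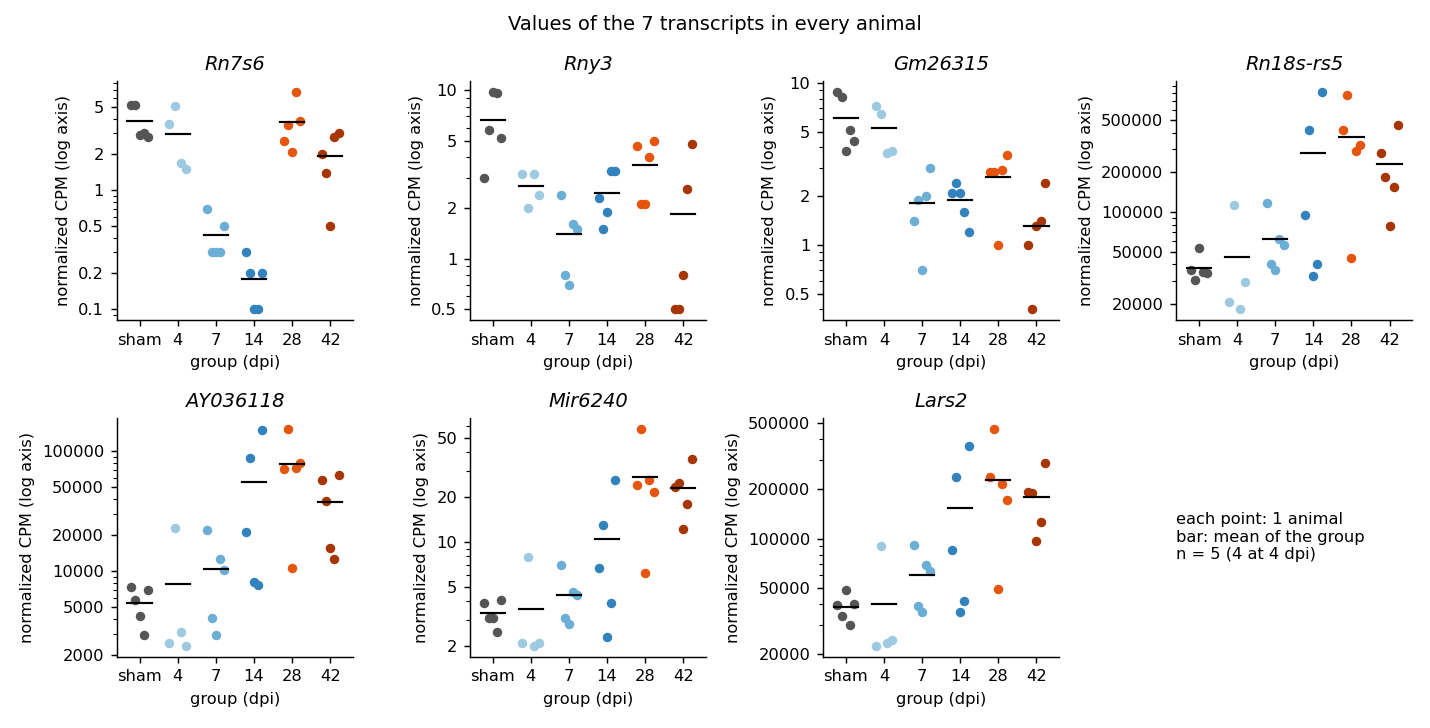
Normalized CPM of each of the 7 transcripts in every animal (log axes), by group, where a point is 1 animal and a bar the group mean. Rn7s6 is lowest at 7 and 14 dpi (0.1 to 0.7) and with a mean near that of sham at 28 dpi, whereas Rn18s-rs5, AY036118, Mir6240 and Lars2 have their highest group means at 28 dpi, with a wide spread between animals.

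The share of all rows with as clear a separation gives the background for these counts. At 7 dpi 3 of the 7 members lay below all sham animals, against 0.583% of all 16995 rows, and none lay above, against 0.388%. At 14 dpi 2 members lay below (0.953% of all rows) and AY036118 lay above (1.11%). At 28 dpi Gm26315 lay below (3.75%) and AY036118, Mir6240 and Lars2 lay above (6.15%), and at 42 dpi Gm26315 lay below (1.1%) and all 4 rRNA-linked members lay above (2.21%). At 4 dpi no member was separated from sham, against 0.612% of all rows below and 1.09% above. The members were selected on these contrasts, so nothing is read from the counts. Near the limit of the selection, Gm26315 at -1.53 was the third largest difference among the 99 rows below sham at 7 dpi and Rny1, which is not a member, was the fourth at -1.38. Among the rows above sham at 28 dpi, Lars2 was the third at 2.26 and Gm4617 the fourth at 1.83.

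The related genes with higher values gave a comparison within each family. Rn7s1 and Rn7s2, whose transcripts are identical over 300 bases, had almost equal values, and Rn7s1 was 20262 ± 5156 normalized CPM in sham (SD, n = 5). Per kb of transcript, Rn7s1 was 5145 times as high as Rn7s6 in sham and Rn7sk 1805 times as high as Gm26315. In limma, with Benjamini-Hochberg adjustment over all 16995 rows, the log2 difference of Rn7s1 was -0.62 ± 0.25 (SE) at 7 dpi (adjusted p = 0.80), with 4 of 5 animals under sham, and -0.41 ± 0.25 at 14 dpi (adjusted p = 0.52). That of Rn7sk was -0.53 ± 0.23 at 7 dpi (adjusted p = 0.84). Neither passed the threshold at any time point. As a ratio within each animal, taken of the values with no pseudocount, Rn7s6 over Rn7s1 was -12.40 ± 0.18 on the log2 scale in sham (SD, n = 5), -14.99 ± 0.49 at 7 dpi, -16.47 ± 0.72 after 14 days and -12.49 ± 0.25 at 28 dpi, so this ratio was lower than in sham at 7 and 14 dpi. At 14 dpi Rn7s6 was 0.1 to 0.3, where 1 rounding step changes the ratio strongly. The group mean of Gm26315 over Rn7sk was -10.91 ± 0.20 in sham and between -12.13 and -12.82 from 7 dpi on. Both ratios use the values that the members were selected on, so they are a description. Reads of the shared stretches had to be divided between the genes of each pair, and the part of this in the ratios was not tested.

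Other near copies of the minor genes had low values too. Gm24447, which shares the same 205 words with Gm26315 as Rn7sk does, was 5.68 ± 1.16 in sham and 2.50 ± 0.86 at 7 dpi, with 5 of 5 animals under sham (limma log2 difference -1.07 ± 0.21, adjusted p = 0.059). Gm26461, which shares 38 words with Rn7s6, was 2.16 ± 0.61 in sham and 0.68 ± 0.22 at 14 dpi, with 5 of 5 animals under sham (-1.16 ± 0.24, adjusted p = 0.17). These 2 genes were chosen for their sequence after values were seen, and neither was called. The ratio of Rny3 to Rny1, both low, was 0.37 ± 0.53 on the log2 scale in sham and -0.22 ± 0.45 at 7 dpi, again with no pseudocount. Rny1 itself was 4.86 ± 1.30 in sham and 1.66 ± 0.96 at 7 dpi (-1.38 ± 0.36, adjusted p = 0.54).

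**Figure D2:**
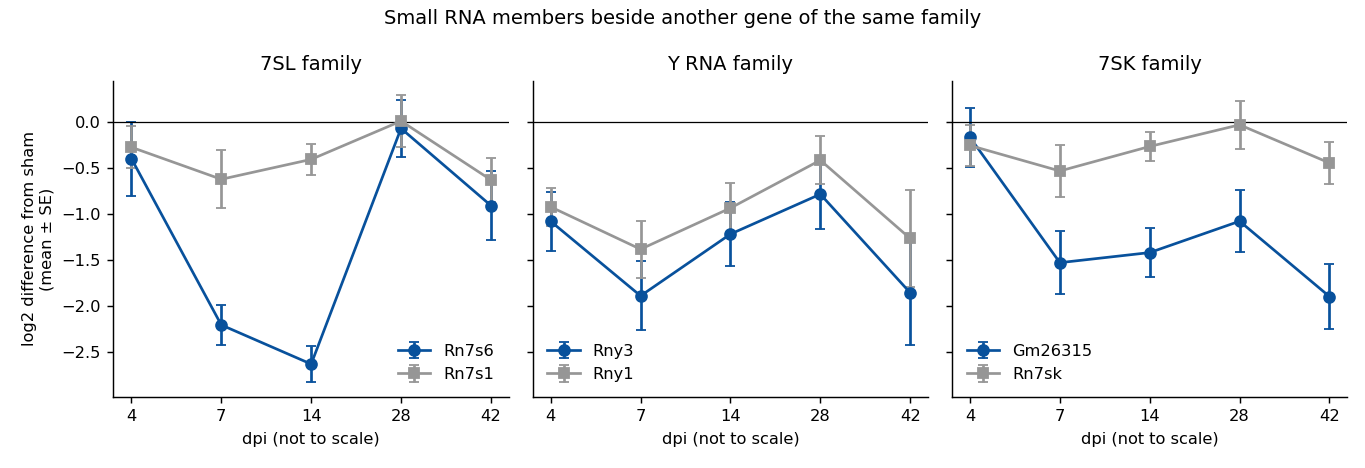
Log2 difference from sham (mean ± SE, log2 of value + 0.5) at each time point for Rn7s6, Rny3 and Gm26315 and for a related gene of each family. At 7 dpi Rn7s6 is at -2.20 beside -0.62 for Rn7s1 and Gm26315 at -1.53 beside -0.53 for Rn7sk, while Rny3 at -1.89 lies beside -1.38 for Rny1.

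Over the list of other small noncoding RNA genes the tested changes were few. The list held 120 rows (small nuclear, small nucleolar, miRNA, ribozyme and misc RNA types), of which 106 had distinct values because near copies share theirs. A row was called at an adjusted p under 0.05 and a fold above 1.5. At 28 dpi 8 of the 120 rows were called, all higher, against 4.15% of all rows called higher, and none was called lower, against 0.488%. Both counts are near the background, so nothing about the list as a whole is read from them. At 4, 7, 14 and 42 dpi 0 rows of the list were called by limma, against 0.0941%, 0.0294%, 0.00588% and 0.0235% of all rows in either direction. At an unadjusted p under 0.05, 5, 46, 18 and 25 of the 120 rows were lower at these times and 0, 0, 1 and 7 higher, beside 402, 614, 911 and 1079 lower and 472, 378, 1062 and 1428 higher of all 16995 rows. With the first part of the animal code as a block, 2 rows of the list were called at 7 dpi and 7 at 42 dpi, all lower, against 0.0412% and 0.0824% of all rows called lower in that fit. Without overlap with sham, 2 of the 120 rows were lower at 4 dpi, 9 at 7 dpi, 0 at 28 dpi and 5 each at 14 and 42 dpi, and 3 were higher at 28 dpi and 1 at 42 dpi, beside the shares of all rows given above, and the 9 include near copies of the members such as Gm24447 and Gm26461. The median log2 difference of the list was -0.40 at 7 dpi, -0.27 after 14 days and 0.06 at 28 dpi, beside medians within 0.01 of 0 over all rows. Counting rows with equal values once left the 8 calls at 8.

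The 8 genes that rose at 28 dpi are annotated as miRNA genes (6) and small nucleolar RNA genes (2), most with low values. Mir6236 rose from 6594 ± 1800 normalized CPM in sham to 31802 ± 19351 (SD, n = 5 each; log2 difference 2.02 ± 0.50, adjusted p = 0.0060), with 4 of 5 animals above sham. Its lowest animal at 28 dpi was A4-1 at 7509, and it was called whichever single animal was left out. Gm23237 rose from 3.24 ± 0.44 to 6.32 ± 1.39 (0.85 ± 0.17, adjusted p = 0.0017) and Gm23631 from 1.64 ± 0.26 to 3.72 ± 1.68 (0.91 ± 0.21, adjusted p = 0.00355), each in 5 of 5 animals. Gm25063, Gm25291, Gm22486, Gm25000 and Gm23992 rose by log2 differences of 0.93, 0.89, 0.75, 0.73 and 0.60 from sham means of 0.62 to 1.82, with 4 of 5 animals above all sham animals for the first 4 of them and 2 of 5 for Gm23992. Of these 5, Gm25063 was called whichever animal was left out, and each of the others lost the call on leaving out any of at least 3 different animals. Gm25291, Gm22486 and Gm23992 also lost it under quantile normalization, and Gm22486 and Gm23992 with a pseudocount of 1. Gm22486 lost it without the variance trend too, and Gm23992 in a fit of only the 2 groups compared. The count fell to 4 without A3-3 of 28 dpi, to 4 without A12-1 of sham and to 5 without A12-3 of sham. Rescaling every animal to the same sum of values turned the split around: 53 of the 120 rows were then lower at 28 dpi and 1 was higher, beside 65.0% of all rows lower and 0.2% higher under that scaling, which moves the median of all rows by -0.73, and Mir6236 was called under it as well.

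Rn18s-rs5, the 18S row, was higher than in all sham animals in 3 of 5 animals at 7 and at 14 dpi, in 4 of 5 at 28 dpi and in 5 of 5 at 42 dpi. Its sham values were 36052, 30321, 52929, 34962 and 34313 normalized CPM, and the 4 dpi values were 20579, 114026, 18295 and 29279, so that A9-4 stood alone and the other 3 lay under sham. They were 116302, 40492, 36202, 62020 and 56408 at 7 dpi, and 14 dpi gave 95114, 419050, 32754, 40691 and 817780. This group thus held 2 animals in the sham range and 2, A5-3 and A6-3, at more than 7 times the highest sham animal. At 28 dpi the values were 417971, 779160, 44755, 291950 and 323193 and at 42 dpi 282927, 184745, 78737, 154685 and 457302. All 5 animals lay above sham at 42 dpi, and 4 of 5 at 28 dpi, where A4-1 lay within the sham range. The log2 difference from sham was -0.14 ± 0.62 at 4 dpi (SE, n = 4 and 5), 0.62 ± 0.33 after 7 days, 1.86 ± 0.93 at 14 dpi, 2.85 ± 0.70 after 28 days and 2.41 ± 0.45 at 42 dpi. Without A5-3 and A6-3 the 14 dpi difference was 0.44. At 28 dpi it ran from 2.47 to 3.50 with 1 animal left out. Quantile normalization put the difference at 0.15, 0.58 and 0.50 at 14, 28 and 42 dpi. The animals whose code begins with A3 held the highest values at both late times: A3-1 and A3-3 lay above the 3 animals of A4 at 28 dpi, and A3-4 lay above the 4 animals of A1 at 42 dpi. Lars2 had the same order, whereas for AY036118 and Mir6240 the ranges of A3 and A4 overlapped at 28 dpi and A3-4 was again the highest at 42 dpi. The part of the code in the differences was not tested.

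AY036118, nested in the 18S row, was above all sham animals from 14 dpi on. Its values in sham were 7428, 5690, 4206, 2948 and 7013. At 14 dpi they were 21172, 88792, 8036, 7625 and 149678, at 28 dpi 71436, 154761, 10597, 72256 and 79956, and at 42 dpi 57241, 38193, 15719, 12694 and 63473. A6-3 at 14 dpi and A3-3 at 28 dpi were the highest animals of their groups, as for Rn18s-rs5. The log2 difference from sham was 2.44 ± 0.92 at 14 dpi, 3.50 ± 0.69 after 28 days and 2.58 ± 0.54 at 42 dpi. At 28 dpi it was 2.38 under quantile normalization and ran from 3.15 to 4.11 with 1 animal left out. Without A5-3 and A6-3 the 14 dpi difference was 1.08. Values ran from 2375 to 23050 at 4 dpi and from 2940 to 22123 at 7 dpi, and both ranges reach below and above that of sham. The ratio of AY036118 to Rn18s-rs5 ran from 0.0795 to 0.206 in sham and from 0.183 to 0.245 at 14 dpi.

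Mir6240 had low values and followed a like course. In sham its values were 3.9, 3.1, 3.1, 2.5 and 4.1 normalized CPM. They were 2.1, 7.9, 2.0 and 2.1 at 4 dpi, 7.0, 3.1, 2.8, 4.6 and 4.4 after 7 days and 6.7, 13.0, 2.3, 3.9 and 26.1 at 14 dpi. At 28 dpi they were 24.2, 57.9, 6.2, 26.0 and 21.7 and at 42 dpi 23.6, 25.1, 12.3, 17.9 and 36.0, and all 10 animals lay above sham. The log2 difference from sham was 0.30 ± 0.24 at 7 dpi, 1.07 ± 0.59 after 14 days, 2.56 ± 0.51 at 28 dpi and 2.54 ± 0.28 after 42 days. At 14 dpi it was 0.23 without A5-3 and A6-3, and from 0.63 to 1.44 with 1 animal left out. The transcript of 117 bases is shorter than the sequencing reads, as is that of Rny3, so that a whole read cannot lie inside either gene.

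Lars2 was above all sham animals at 28 and 42 dpi, with values near those of the 18S row. In sham they were 39325, 33680, 48716, 29724 and 40130. They ranged from 22331 to 90044 at 4 dpi and from 35695 to 91214 after 7 days, and were 85075, 234878, 35818, 42021 and 366386 at 14 dpi. At 28 dpi they were 235415, 464069, 49180, 213208 and 170409 and at 42 dpi 191894, 189386, 96363, 125351 and 286397. All 10 animals at 28 and 42 dpi lay above sham, although A4-1 of 28 dpi, at 49180, lay just above the highest sham animal at 48716. The log2 difference from sham was 1.43 ± 0.68 at 14 dpi, 2.26 ± 0.54 after 28 days and 2.13 ± 0.30 at 42 dpi. Quantile normalization put it at 0.024, 0.10 and 0.18 at these times and at -0.18 at 7 dpi. Without A5-3 and A6-3 the 14 dpi difference was 0.42. The ratio of Lars2 to Rn18s-rs5 was between 0.448 and 1.27 in all 29 animals.

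Lars2 stood far from the other genes of its enzyme family. Mitochondrial aminoacyl-tRNA synthetases charge tRNAs for translation inside mitochondria, and the 17 other synthetase rows (with Lars, the cytosolic leucine enzyme, among them) had sham means of 1.09 to 8.97 normalized CPM per kb of the longest transcript. Lars2 was 2895 times their median and 1097 times the highest of them on this scale. None of the 17 was called at any time point by limma, a count near the background, since at 28 dpi 4.15% of all rows were called higher and 0.488% lower and at the other times at most 0.0941% were called. At an unadjusted p under 0.05 3 were lower and 0 higher at 28 dpi, beside 3436 lower and 3112 higher of all 16995 rows. Their median log2 difference at 28 dpi was -0.04. The smallest p values belonged to Yars2, which was 8.8 to 13.1 in sham and 6.4 to 9.4 at 28 dpi (log2 difference -0.37 ± 0.10, adjusted p = 0.0092, under the fold limit), and Mars2, at -0.31 ± 0.10 at 14 dpi (adjusted p = 0.38).

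**Figure D3:**
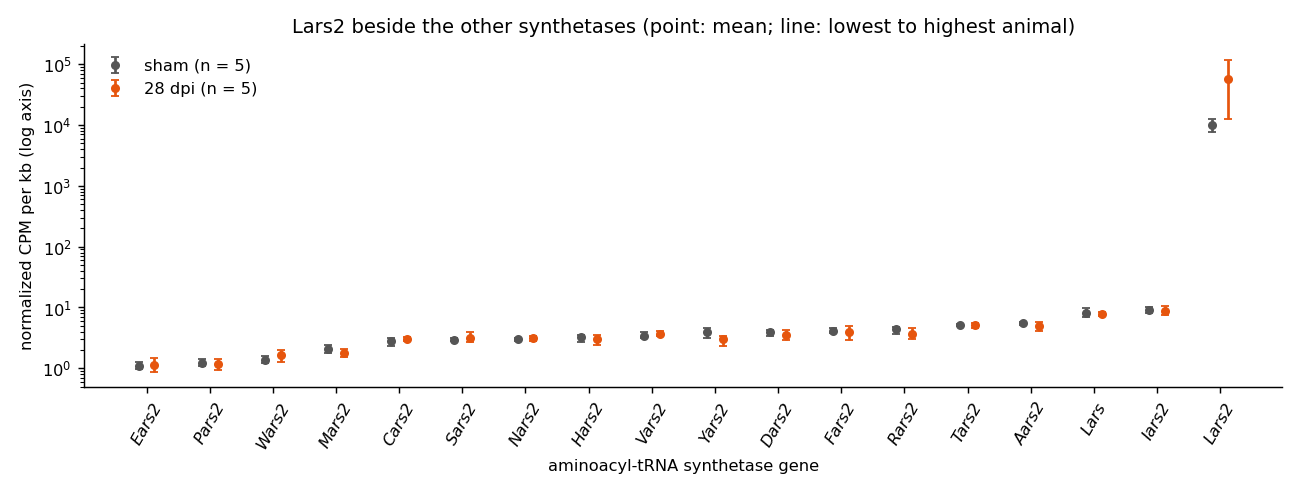
Normalized CPM per kb of the longest transcript (log axis) of the synthetase genes in sham and at 28 dpi, where a point is the mean of 5 animals and a line runs from the lowest to the highest animal. The 17 other genes lie between 1.09 and 8.97 in sham, while Lars2 is 1097 times the highest of them.

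The 4 rRNA-linked rows together took a changing share of all summed values. In sham they held 10.2% ± 1.77 (SD, n = 5) of the sum over all rows, with a range from 8.62% to 12.9%. The share was 5.95% to 23.9% at 4 dpi and 9.87% to 24.4% at 7 dpi. At 14 dpi it ran from 9.46% to 61.3%, at 28 dpi from 13.2% to 61.9% and at 42 dpi from 21.6% to 49.4%. The sum over the other rows kept a much narrower range, from 658654 to 858863 over all 29 animals, beside 714597 to 2256910 with them. The median value of a row was 10.2 to 11.2 in every animal.

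**Figure D4:**
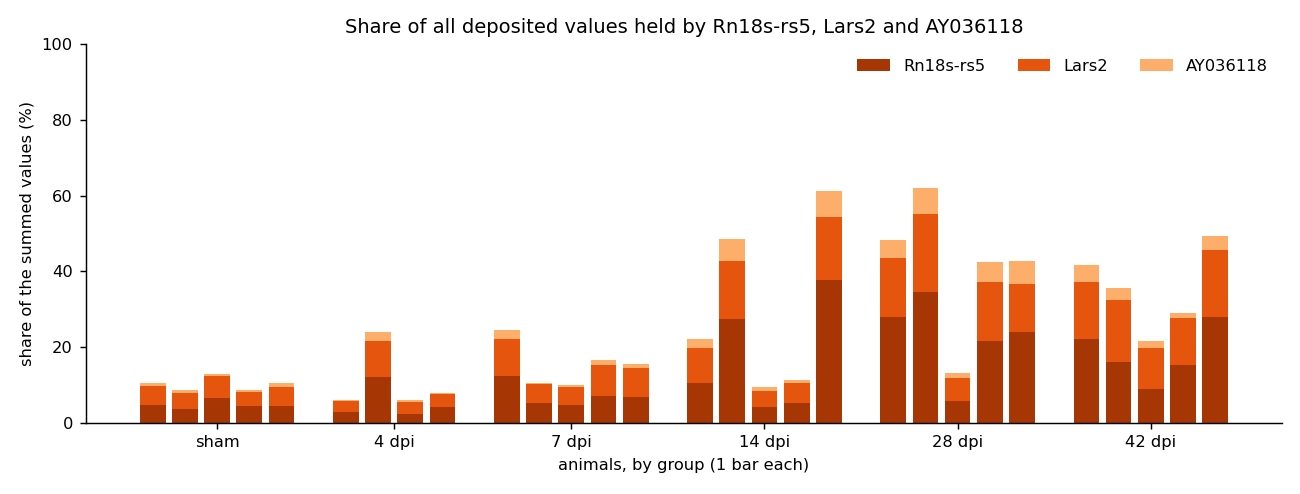
Share of the summed values of each animal (1 bar each, in percent, from 0) held by Rn18s-rs5, Lars2 and AY036118, where Mir6240 is too low to be seen. The bars are near 10% in sham, and those of single animals at 14, 28 and 42 dpi differ by several fold within a group.

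Among 7 other rRNA-linked rows, 4 rose at 28 dpi, against 4.15% of all rows, and limma called 0 at the other time points, against the shares of 0.00588% to 0.0941% given above. At an unadjusted p under 0.05, 0, 0, 1 and 3 of the 7 were higher at 4, 7, 14 and 42 dpi and 0, 1, 1 and 1 lower. Of all 16995 rows, 472, 378, 1062 and 1428 were higher and 402, 614, 911 and 1079 lower at these times. At 28 dpi 5 of the 7 were higher and 0 lower, beside 3112 and 3436 of all rows. These rows are the 2 mitochondrial rRNAs, rows near the 18S locus and rows linked to rRNA by name, and 1 of them, Gm23935, is also in the list of small noncoding RNA genes. Gm15564 rose from 68.5 ± 27.3 in sham to 323 ± 181 (log2 difference 2.00 ± 0.58, adjusted p = 0.014), in 4 of 5 animals. The mitochondrial 12S rRNA row mt-Rnr1 rose from 5786 ± 693 to 13600 ± 6570 (1.11 ± 0.33, adjusted p = 0.015), in 5 of 5 animals. Without A3-3 of 28 dpi neither of these 2 was called any longer (adjusted p = 0.052 and 0.069), which left 2 calls, and mt-Rnr1 also lost its call under quantile normalization and under rescaling to the same sum. Gm26917, which lies beside the 18S row on chromosome 17, rose from 1793 ± 121 to 3560 ± 1155 (0.93 ± 0.17, adjusted p = 0.00145) and Gm26905 from 830 ± 73.3 to 1343 ± 199 (0.69 ± 0.13, adjusted p = 0.00145), each in 5 of 5 animals and whichever single animal was left out. The 16S rRNA row mt-Rnr2 was 36619 ± 4912 in sham and 45095 ± 12355 at 28 dpi (0.27 ± 0.24, adjusted p = 0.41). With all animals rescaled to the same sum, Gm26917 and Gm26905 lost their calls too, and 1 of the 7 rows was called higher and 1 lower at 28 dpi, against 0.2% and 65.0% of all rows.

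Gm42418, which overlaps the 18S row on the other strand, was not called at any time point by limma. Its mean was 191 ± 33.7 in sham, 159 ± 35.0 at 14 dpi and 456 ± 486 after 28 days, with 2 of 5 animals above sham and 1 below (log2 difference 0.78 ± 0.33, adjusted p = 0.081), and 151 ± 25.7 at 42 dpi, when Rn18s-rs5 was above sham in every animal. Reads of the sequence these genes share cannot be told apart, so this contrast depends on how those reads were divided.

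The protein partners and producers of these RNAs are counted against a low background of calls, 0.488% of all rows lower and 4.15% higher at 28 dpi and at most 0.0941% at the other times. Of 9 signal recognition particle protein rows, 7 Y RNA binding protein rows, 39 rows for RNA polymerase I and rRNA maturation and 27 rows for RNA polymerase III and its factors, 0 were called by limma at any time point. At an unadjusted p under 0.05, 7 of the 9 signal recognition particle rows were lower at 28 dpi, with a list median of -0.28, as were 3 of 7, 12 of 39 and 6 of 27 rows of the other lists, with 0, 1, 3 and 1 higher in the same order. The share of all rows lower at that p and time was 3436 of 16995. The smallest p values were those of Srp54b (92.0 to 129.3 in sham and 74.1 to 93.7 at 28 dpi; -0.35 ± 0.08, adjusted p = 0.0042) and Srprb (-0.28 ± 0.09, adjusted p = 0.028), subunits of the particle and of its receptor. Among Y RNA binding proteins they were those of Puf60 (-0.25 ± 0.06, adjusted p = 0.0063) and Ssb, the La protein (-0.33 ± 0.11, adjusted p = 0.023), at 28 dpi. For the polymerase I list they were those of the nucleolar proteins Npm1 (-0.31 ± 0.08, adjusted p = 0.0060) and Nop56 (-0.29 ± 0.08, adjusted p = 0.013) at 28 dpi, and for the polymerase III list those of Gtf3c1 after 14 days (-0.21 ± 0.06, adjusted p = 0.38) and Snapc5 at 28 dpi (-0.34 ± 0.12, adjusted p = 0.033). All of these differences were under the 1.5-fold limit. Under rescaling to the same sum, which moves the median of all rows by -0.73, 94 of these rows and the synthetase rows were called lower at 28 dpi, beside 65.0% of all rows.

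Animals of a group differed together at the 4 rRNA-linked rows. This was measured on deviations from group means, not on the group differences used for the selection. The same animals carry both, and a shared course was among the links that defined these rows. The pairs are therefore no separate evidence that the rows belong together. Each value was expressed as its deviation from the group mean on the log2 scale, and the 21 pairs of the 7 members were correlated over 29 animals with 100000 permutations within groups (two-sided, Benjamini-Hochberg over the 21 pairs). All 6 pairs of the rRNA-linked rows passed, with Pearson's r from 0.93 to 0.98 and Spearman's rho from 0.90 to 0.96 (adjusted permutation p = 3.5e-05 for each r, which rests on the smallest raw p that the permutations can give, 1e-05). Without the 2 animals farthest from the median, r was 0.90 to 0.97. Within animals of the same group and the same first part of the code, a setting chosen after seeing the data, all 6 pairs passed as well. After quantile normalization, which gives every animal the same highest values, 2 of the 6 passed and r of Rn18s-rs5 with Lars2 was -0.15. Rn18s-rs5 and AY036118 share sequence, so their values are not independent, while Mir6240 and Lars2 share no word of 31 bases with either. All rows of an animal come from the same library, so they also share its depletion and normalization.

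Fewer pairs with a small RNA row passed. Among their 3 pairs only Rn7s6 and Gm26315 passed (r = 0.54, adjusted permutation p = 0.025; rho = 0.65, adjusted permutation p = 0.0040), and r was 0.33 within the same group and first part of the code (adjusted permutation p = 0.63). Rn7s6 and Rny3 gave r = 0.26 (adjusted permutation p = 0.38). Of the 12 pairs of a small RNA with an rRNA-linked row, 4 passed, all with Rn7s6, with r between 0.44 and 0.49, and none of the 4 passed after rescaling to the same sum or without A9-4 of 4 dpi. By rho, Rn7s6 passed with AY036118 and Mir6240 but not with Rn18s-rs5 or Lars2 (adjusted permutation p = 0.091 each). Within the same group and first part of the code, the pair with AY036118 did not pass (adjusted permutation p = 0.079). The other 8 of the 12 pairs gave r between 0.06 and 0.31. None of the 12 was negative, but after rescaling to the same sum 8 of them were, all 8 with Rny3 or Gm26315. In A6-3 of 14 dpi, the highest animal for Rn18s-rs5, Rn7s6 was 0.2. That group ran only from 0.1 to 0.3 for Rn7s6, so with values rounded to 0.1 its animals cannot be ranked.

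**Figure D5:**
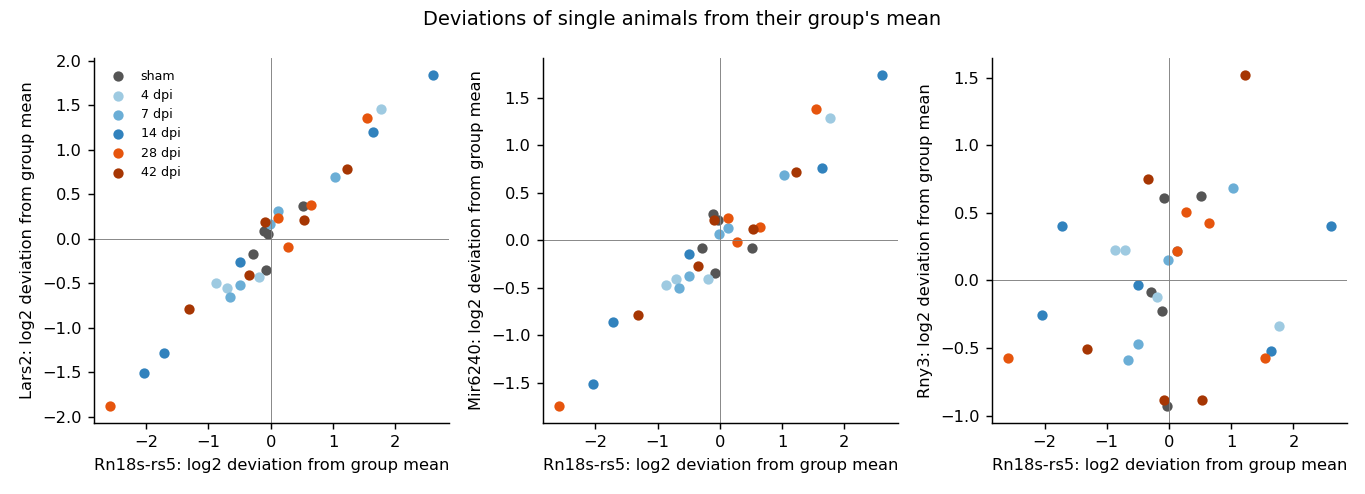
Deviation of every animal from its group mean (log2 scale) for Lars2, Mir6240 and Rny3 against that for Rn18s-rs5, coloured by group, over 29 animals. Lars2 and Mir6240 rise with Rn18s-rs5 along a line (r = 0.98 and 0.96), while Rny3 is scattered (r = 0.20).

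The 2 kinds of row had their extremes at different times. By group mean, the 3 small RNA rows were lowest at 7 dpi or 14 dpi, or, for Gm26315, at 42 dpi. For Rny3 the order of 7 and 42 dpi is not firm, with log2 differences of -1.89 and -1.85 and medians of 1.5 and 0.8. The 4 rRNA-linked rows had no group fully above sham before 14 dpi, and their group means were highest at 28 dpi. For Mir6240 and Lars2 this order is not firm. Their log2 differences at 28 and 42 dpi were 2.56 and 2.54 for Mir6240 and 2.26 and 2.13 for Lars2. With 1 animal left out, those at 28 dpi fell as low as 2.22 and 1.92. At 28 dpi, where the rRNA-linked rows were highest, Rn7s6 was at 3.74 ± 1.79 beside 3.82 ± 1.26 in sham (SD, n = 5 each). Its log2 difference there was -0.07, and -0.76 with all animals rescaled to the same sum.

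Outside the 7 members, the rows most like Rn7s6 over the 29 animals were protein coding genes with small differences. By Pearson's r of the log2 values, a description with no p, they were Fzd3 (r = 0.80), a Wnt receptor gene, Zfp532 (0.77), Dgki (0.74), Akap9 (0.73) and Csmd1 (0.73). Fzd3 was 32.2 ± 2.52 in sham, 24.5 ± 0.99 at 14 dpi and 34.1 ± 6.75 at 28 dpi. The rows outside the members most like Rn18s-rs5 were Gm15662 (r = 0.99), Mir6236 (0.99), Gm20594 (0.94), Bptf (0.93), a chromatin remodelling factor, and Gm15564 (0.93). Gm15662 was 6048 ± 954 in sham and 29356 ± 18898 at 28 dpi, and Bptf 135 ± 2.80 and 289 ± 99.6. The points share libraries, groups and normalization in each case.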

How the data were processed

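RNA-seq of rRNA-depleted total RNA (Ribo-Zero Gold, TruSeq RNA v2, single-end reads) was analysed in 29 animals of 6 groups. A thirtieth animal, of 4 dpi, has no value column and was not analysed here. The study states that it left out a sample of 4 dpi as an outlier in its expression tests. The labels do not say whether it is this animal. The authors quantified reads with Salmon on mm10, summarised them per gene with tximport and normalized them in edgeR (submitters' processing notes: R 3.4.1, edgeR 3.14.0). The deposited values are a score, normalized CPM rounded to 0.1 by the authors, and not counts, so depth is unknown and the number of reads behind a value cannot be given. No value column was left unmapped (0).

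The 7 members and the gene lists were chosen with earlier results of these data known. Values were transformed as log2(value + 0.5). Differences of members are means with SE from both SDs, without a test. Other genes were tested with limma 3.58.1 in R 4.3.3 (all 29 animals, variance trend, Benjamini-Hochberg over 16995 rows, adjusted p under 0.05 and fold above 1.5). The fit was tested on simulated data. Comparisons share the sham animals. Deviations from group means were correlated with 100000 permutations within groups (scipy 1.17.1). Sequences were cut into words of 31 bases and looked up in GENCODE M21 transcripts of mm10, which held 16919 of the 16995 gene IDs. Promoters and proteins were not used.

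Named were the members, called genes of each list (at most 10) or else the 2 with the smallest p at any time, rows within 20 kb of Rn18s-rs5, and the 5 rows outside the members most like Rn7s6 and Rn18s-rs5. Relatives of the members by sequence or family, the mitochondrial 16S row and threshold neighbours were named in addition, after their values were seen. Alternatives were other pseudocounts, scalings, fits, filters, limits and animals left out. A few marker genes and 1 sequence are not reported here.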

Additional observations from a re-analysis of the deposited data

Results flagged for a closer look

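In 5 of 42 groups of values, a single animal stood apart from the rest of its group by Dixon's criterion, where chance gives about 2.1. In sham, A12-1 had 52929.1 normalized CPM for Rn18s-rs5, beside 30320.8 to 36051.5 in the other 4 animals. The other 4 cases were all A9-4 of 4 dpi and are not independent of each other. A9-4 had 114025.9 for Rn18s-rs5 (others 18295.2 to 29279.1), 23050.4 for AY036118 (2374.9 to 3077.5), 7.9 for Mir6240 (2.0 to 2.1) and 90043.9 for Lars2 (22330.7 to 24286.7). Groups of 4 and 5 animals were examined in this way, and the 2 high animals of 14 dpi, which lie apart as a pair, are not found by it.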

How the results depend on the processing

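Leaving out 1 animal at a time moved no difference of a member by more than the spread between replicates but turned the sign of 4 small differences: Rn7s6 at 28 dpi (-0.28 to 0.083) and, at 4 dpi, Rn18s-rs5 (-0.73 to 0.15), AY036118 (-0.97 to 0.12) and Mir6240 (-0.56 to 0.018). The median over animals put Rn7s6 at 0.19 at 28 dpi, and quantile normalization put Rn18s-rs5 at 0.026 and Lars2 at 0.024 at 4 dpi. Apart from these and Lars2 at 7 dpi under quantile normalization, differences of the members kept their direction. With a pseudocount of 1 and of 0.05, Rn7s6 was at -1.73 and -3.06 at 7 dpi and at -1.99 and -4.09 at 14 dpi. With every animal rescaled to the same sum, which moves the median of all rows by -0.48 at 14 dpi, -0.73 at 28 dpi and -0.52 at 42 dpi, Rn7s6 was at -3.03 (14 dpi) and -0.76 (28 dpi), Rny3 at -1.48 (28 dpi), Gm26315 at -1.85 (14 dpi) and -1.78 (28 dpi), and Mir6240 and Lars2 at 2.04 and 1.58 (42 dpi). Quantile normalization, which gives all animals the same highest values by construction, left Rn18s-rs5 at 0.15, 0.58 and 0.50 at 14, 28 and 42 dpi, AY036118 at 2.38 at 28 dpi and Lars2 at -0.18, 0.024, 0.10 and 0.18 from 7 to 42 dpi.

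Calls among the 120 small noncoding genes at 7 dpi (0) became 1 with a pseudocount of 1, 7 with the same sum, 2 with the first part of the animal code as a block and 3 at an adjusted p under 0.1. With the same sum they became 10 at 14 dpi, 54 at 28 dpi and 27 at 42 dpi, all lower except 1 at 28 dpi and 1 at 42 dpi, as were the 7 at 7 dpi, beside 0.0941%, 0.177%, 65.0% and 0.7% of all rows lower at 7, 14, 28 and 42 dpi, and a 2-fold limit left 1 at 28 dpi. At 42 dpi (0) they became 1 with quantile normalization, 6 in a fit of 2 groups, 7 with the block and 6 at an adjusted p under 0.1. Calls among the 7 rRNA-linked rows became 1 at 14 dpi and 2 at 28 and at 42 dpi with the same sum, 2 at 28 dpi with a 2-fold limit, and at 42 dpi 2 in a fit of 2 groups, 1 with the block and 1 at an adjusted p under 0.1. Calls among the partner lists at 28 dpi became 94 with the same sum. With 1 animal left out, small noncoding calls ran from 0 to 1 at 4 dpi, 0 to 3 at 7 dpi, 4 to 9 at 28 dpi and 0 to 4 at 42 dpi, and rRNA-linked calls from 2 to 5 at 28 dpi and 0 to 1 at 42 dpi. The cause of these changes was not tested.

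Of the 3 small RNA pairs, 0 passed with a pseudocount of 0.05, with the same sum, without sham, 4 dpi or 28 dpi, or within the same first part of the code, a setting chosen after seeing the data, as was leaving out A5-3 and A6-3. Of the 12 mixed pairs, 0 passed with the same sum, 2 with quantile normalization, and 0, 1, 2 and 1 without 4, 7, 14 and 42 dpi. Of the 6 rRNA-linked pairs, 2 passed with quantile normalization. With 1 animal left out, 0 to 1, 0 to 5 and 6 to 6 pairs passed. The sign of r turned for Rn7s6 with Rny3 (-0.024) and Rny3 with Gm26315 (-0.033) without 42 dpi. With the same sum it turned for Rny3 with Rn18s-rs5 (-0.22), AY036118 (-0.35), Mir6240 (-0.30) and Lars2 (-0.30), and for Gm26315 with the same 4 rows (-0.27, -0.11, -0.20 and -0.23). Rny3 with AY036118 was at -0.077 without 7 dpi, at -0.043 within the first part of the code and from -0.050 to 0.12 with 1 animal left out, and Rny3 with Mir6240 was at -0.010 within the first part of the code. With quantile normalization, r was -0.059 for Rn7s6 with Lars2, -0.11 for Rny3 with Lars2 and -0.15 for Rn18s-rs5 with Lars2. No paired analysis was possible because the labels give no replicate number shared by the groups compared.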

Other observations

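The ratio of Mir6240 to Lars2 varied less between animals than that of Lars2 to Rn18s-rs5 at each time point after stroke, but not in sham. The log2 ratio of Mir6240 to Lars2 had an SD of 0.27 in sham, 0.13 at 28 dpi and 0.08 at 42 dpi (n = 5 each; values with no pseudocount), whereas that of Mir6240 to Rn18s-rs5 had an SD of 0.44, 0.49 and 0.43 and that of Lars2 to Rn18s-rs5 an SD of 0.20, 0.43 and 0.40. The mean of Mir6240 to Lars2 was -13.49 in sham, -13.77 at 14 dpi, -13.02 at 28 dpi and -12.91 at 42 dpi. The ratio of Mir6236 to Rn18s-rs5 was -2.53 ± 0.07 on the log2 scale in sham (SD, n = 5), -3.23 ± 0.60 at 14 dpi and -3.36 ± 0.49 at 28 dpi. These ratios were looked at after the values of the single rows were known, and no test was run on them.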
